A study of Mus musculus with 4 samples.

Results

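Superoxide dismutases, catalase, glutathione peroxidases and peroxiredoxins form the enzymatic defence against superoxide and peroxides, and 10 of their genes were followed here in cardiomyocyte nuclei of the neonatal mouse heart. The genes were chosen by name, as the members of these families listed for study together with the mitochondrial thioredoxin, and all 10 were present among the 22574 genes of the deposited matrix. The measurement was single-nucleus RNA sequencing (snRNA-seq) of 4 libraries, 1 for each combination of genotype and surgery, with 8585 nuclei in all. Mice on a C57BL/6 background were operated at postnatal day 3. Surgery tied off the left anterior descending artery (myocardial infarction, MI) or opened the chest alone (Sham), and heart tissue under the level of the tie was taken 1 day later. All groups carried loxP-flanked Nrf1 alleles (Nrf1fl/fl, here the gene Nfe2l1, not nuclear respiratory factor 1). The groups labelled KO also carried Cre recombinase under the alpha myosin heavy chain promoter (aMHC-Cre), which is active in cardiomyocytes, and the groups labelled WT did not. The libraries are called Sham-WT, Sham-KO, MI-WT and MI-KO, and each held nuclei pooled from 4 to 6 hearts of 1 genotype. No group had a second library. Differences are therefore given without tests or p-values, and pool, batch and condition cannot be told apart.

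Superoxide leaks from the respiratory chain of working cardiomyocytes, and superoxide dismutases turn it into hydrogen peroxide, Sod1 in the cytosol and Sod2 in the mitochondrial matrix. Catalase (Cat) splits hydrogen peroxide in peroxisomes, while glutathione peroxidases reduce it with glutathione: Gpx1 in the cytosol and mitochondria, Gpx3 as a secreted enzyme, and Gpx4 on lipid peroxides in membranes, where it restrains ferroptosis. Peroxiredoxins reduce peroxides with electrons from thioredoxin, Prdx1 mainly in the cytosol, Prdx3 in the mitochondrial matrix and Prdx5 in several compartments, and Txn2 is the thioredoxin that recharges the mitochondrial ones. Nfe2l1 and its relative Nfe2l2 are transcription factors that bind antioxidant response elements, and Nfe2l1 also drives the genes of the proteasome.

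Levels are given as CPM, the UMIs (unique molecular identifiers, counts of captured RNA molecules) of a gene per 1000000 UMIs, after adding up all nuclei of a library or those of 1 cardiomyocyte population in it. The brackets beside a CPM hold an exact 95% Poisson interval and those beside a log2 ratio of CPM the conditional binomial one, and both cover counting error only. The 4 libraries held 1406 to 3328 nuclei and 4984625 to 9106522 UMIs. The median UMIs per nucleus were 2572 in Sham-KO and 3553.5 to 3959 in the other 3, and the median share of UMIs from the mitochondrial genome was 8.98% in Sham-KO and 5.29% to 6.58% in the others. Of the barcodes, 9 occurred in 2 libraries. All 7 cardiomyocyte markers were detected in every library, with Myh6, a cardiac myosin heavy chain, at 5252 to 5782 CPM. RNA of other cell types was in nearly every nucleus: 96.0% to 99.9% of the nuclei of a library held a UMI of the 5 red blood cell genes, and 22.1% to 85.2% held one of the 10 myeloid genes. The targeted gene went against 1 label: Nfe2l1 was at 50.5 CPM in the library labelled Sham-KO against 62.2 in Sham-WT, but at 55.3 CPM in the library labelled MI-KO against 47.4 in MI-WT, a log2 ratio of 0.22 (0.02 to 0.43). The labels do not say which exons Cre removes, so a 3′ count need not show the deletion, and every KO over WT direction below is between libraries so labelled.

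The antioxidant response element was searched in the promoters of the 10 genes, since it is the motif of the deleted factor's family. The RefSeq windows (300 bases around a transcription start, build GRCm38.p6) covered all 10 genes with 13 windows. The letters TGACNNNGC were found on either strand in 1 window each of Sod1 and Prdx1, and in 12.4% of all 32851 windows of the same length. The 2 windows with a match are shown because the libraries differ in that factor's gene. Sod1 is at chr16:90220512-90220811 and Prdx1 at chr4:116685349-116685648, both on the plus strand, and the capitals mark the match, which lies on the minus strand and so appears as its reverse complement.
Sod1: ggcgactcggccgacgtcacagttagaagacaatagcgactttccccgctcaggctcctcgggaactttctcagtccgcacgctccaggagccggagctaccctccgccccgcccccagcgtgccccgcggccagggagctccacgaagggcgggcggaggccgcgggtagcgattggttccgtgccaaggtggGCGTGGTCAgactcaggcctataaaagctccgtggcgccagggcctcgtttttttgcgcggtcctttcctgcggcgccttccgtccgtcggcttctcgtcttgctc
Prdx1: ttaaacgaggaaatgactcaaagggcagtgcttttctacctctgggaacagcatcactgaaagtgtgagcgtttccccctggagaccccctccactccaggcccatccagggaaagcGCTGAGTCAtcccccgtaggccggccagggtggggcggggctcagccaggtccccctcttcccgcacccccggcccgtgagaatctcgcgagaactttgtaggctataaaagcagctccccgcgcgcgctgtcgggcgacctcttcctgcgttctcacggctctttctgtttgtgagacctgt
The match started 56 bases before the start of Sod1 and 133 bases before that of Prdx1. The core of nuclear respiratory factor 1, GCATGCGC, was in 1 of the windows of Gpx4, 159 bases before its start, and in 2.71% of all windows. The FoxO letters TGTTTAC were in none of the 13 windows and in 3.65% of all. A match is a description of the letters and shows no binding.

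The order of the genes by level depends on the length used to scale them, and whether these 3′ counts follow gene length was not tested. Per kilobase of gene span, Prdx5 at 33.7 to 53.0 CPM and Gpx1 at 31.3 to 44.2 CPM stood at the top over the 4 libraries and Cat at 1.05 to 1.72 CPM at the bottom. Gpx4 followed at 15.7 to 26.3 CPM per kilobase. Prdx1 (9.66 to 11.7), Sod1 (9.21 to 13.6) and Sod2 (5.99 to 10.9) overlapped in their ranges, as did Txn2 (4.56 to 5.32) and Prdx3 (3.28 to 5.22), with Gpx3 (2.76 to 3.67) reaching into the range of Prdx3. Per kilobase of exon the order changed, and Gpx4 led with 84.4 to 142 CPM. In the GENCODE M21 annotation of GRCm38, Gpx1 (ENSMUSG00000063856.7, chromosome 9, 108338903 to 108340343) spans only 1441 bases and Sod2 (ENSMUSG00000006818.5, chromosome 17, 13006846 to 13040063) spans 33218. Sod1 (ENSMUSG00000022982.10, chromosome 16, 90220754 to 90226329) overlaps Scaf4 and Prdx5 (ENSMUSG00000024953.17, chromosome 19, 6906697 to 6910106) overlaps Trmt112, both on the opposite strand. Strand use in the counting is not given in the sources used here, so reads of these pairs may be shared and the values of Sod1 and Prdx5 are uncertain to that extent.

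Among superoxide dismutases, Sod2 in all nuclei was at 244 CPM (231 to 258) in Sham-WT, 361 (349 to 374) in Sham-KO, 199 (189 to 209) in MI-WT and 220.2 (209.7 to 231) in MI-KO. The library labelled Sham-KO stood above the other 3, and its interval overlapped none of theirs. Sod1 was at 62.2 CPM in Sham-WT, 76.0 in Sham-KO, 52.2 in MI-WT and 51.4 in MI-KO, again highest in Sham-KO. Catalase kept another order: Cat was at 54.0 CPM (47.7 to 60.8) in Sham-WT and 50.1 (45.6 to 54.9) in Sham-KO, and at 34.4 (30.5 to 38.8) in MI-WT and 32.9 (28.9 to 37.3) in MI-KO. The intervals of the Sham libraries did not overlap those of the MI libraries, while KO and WT overlapped at each surgery.

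Of the glutathione peroxidases, Gpx4 was at 192 CPM in Sham-WT, 244 in Sham-KO, 145 in MI-WT and 165 in MI-KO, the order of Sod2. Gpx1 went differently, with its lowest level in Sham-WT at 45.1 CPM (39.4 to 51.4) and its highest in MI-WT at 63.7 (58.3 to 69.5), while Sham-KO was at 56.7 and MI-KO at 52.6. Gpx3, with 135 to 214 UMIs per library the least counted of the 10, stayed between 21.9 and 29.1 CPM. Among peroxiredoxins, Prdx5 was at 131 CPM in Sham-WT, 181 in Sham-KO, 115 in MI-WT and 115 in MI-KO, and Prdx3 at 42.5, 54.8, 34.4 and 43.1 CPM in the same order of libraries. Prdx1 varied less, from 148 CPM in MI-KO to 179 in Sham-KO. Txn2 also held a narrow range, from 63.7 CPM in MI-WT to 74.2 in Sham-WT. Sham-KO held the highest level for 6 of the 10 genes, Sod1, Sod2, Gpx4, Prdx1, Prdx3 and Prdx5. Counts per nucleus were low, and no nucleus held more than 8 UMIs of any 1 of these genes.

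**Figure D1:**
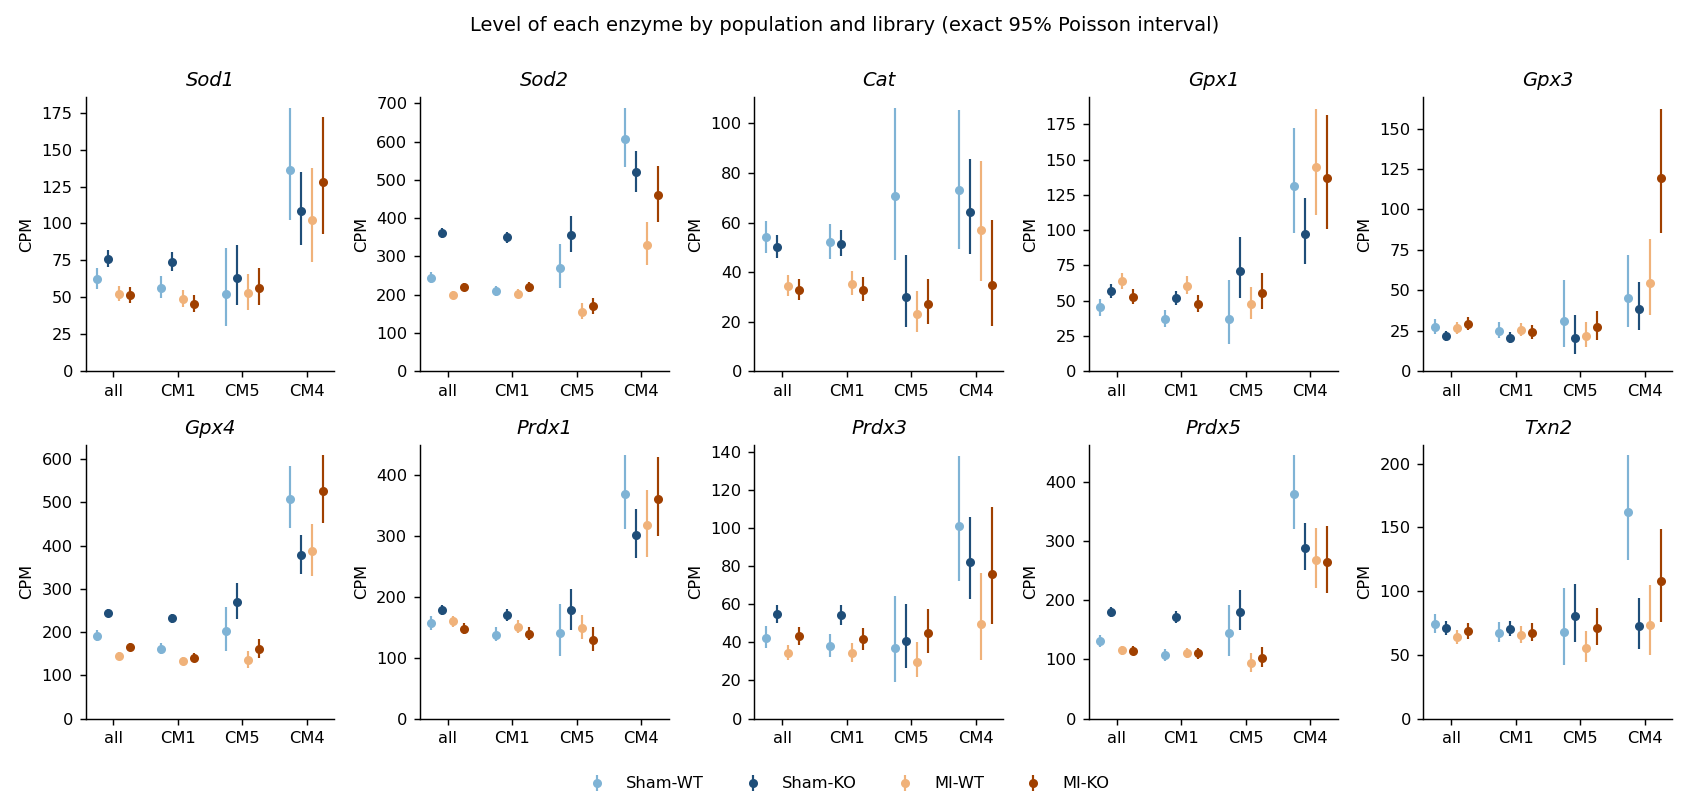
Level of each enzyme in CPM (vertical axis, starting at 0) in all nuclei and in the populations CM1, CM5 and CM4 (horizontal axis) of the 4 libraries, with exact 95% Poisson intervals as bars. CM4 lies above CM1 in every library for each gene, and Sod2 in all nuclei runs from 199 CPM in MI-WT to 361 in Sham-KO.

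Without infarction, the library labelled KO held more RNA of most of these enzymes. Sham-KO over Sham-WT, the log2 ratio was 0.57 (0.47 to 0.66) for Sod2, 0.46 (0.33 to 0.60) for Prdx5, 0.37 (0.13 to 0.60) for Prdx3, 0.35 (0.24 to 0.46) for Gpx4 and 0.33 (0.10 to 0.56) for Gpx1. Sod1 at 0.29 (0.09 to 0.49) and Prdx1 at 0.19 (0.07 to 0.32) were smaller and also had intervals above 0. The intervals of Cat, Gpx3 and Txn2 held 0. No gene of the 10 reached 1.5-fold in either direction, where 5.74% of the 13370 genes with at least 20 UMIs over both libraries were 1.5-fold or more higher and 5.61% lower. The median of the 10 was 0.31, against a median of -0.09 over all these genes. Scaling by TMM, which sets libraries to a common trimmed mean, moved every ratio of this pair up by 0.10, so the values relative to the all-gene median are also given: 0.66 for Sod2, 0.56 for Prdx5, 0.44 for Gpx4, -0.01 for Cat and -0.22 for Gpx3, with a median of 0.40 for the 10.

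The same library held more of the mitochondrial and translation genes as a whole, and by more. The median log2 ratio Sham-KO over Sham-WT was 0.65 over 79 nuclear genes of the respiratory chain and ATP synthase, all 79 of them above 0, and 0.40 over 82 ribosomal protein genes. None of the 10 enzymes was above the respiratory chain median and 2 were above the ribosomal one. Sham-KO also had the shallowest nuclei and the highest mitochondrial share. Its summed level of the 7 endothelial genes was 880.4 CPM against 579 in Sham-WT. Most of that difference was Fabp4, at 758 CPM in Sham-KO and 474 in Sham-WT. Pecam1 was at 21.1 and 19.9 CPM and Flt1 at 16.4 and 11.6. The red blood cell genes summed to 2318 CPM in Sham-KO against 3296 in Sham-WT. The part of depth and of other cells' RNA in the result was not tested. In nuclei with 2000 to 4000 UMIs the median of the 10 was 0.15, thinned to 1000 UMIs per nucleus it was 0.15, and in nuclei with 4% to 8% mitochondrial UMIs it was 0.42. Within CM1 the median was 0.43, and Sod2 at 0.74 (0.63 to 0.85) and Prdx5 at 0.67 (0.51 to 0.83) passed 1.5-fold there. In CM1 nuclei with 8% to 12% mitochondrial UMIs the median was 0.19. Sod2 at 0.53 and Prdx5 at 0.57 were then under 1.5-fold. In CM1 nuclei with 1500 to 2500 UMIs the median was 0.37, with Sod2 at 0.75 and Prdx5 at 1.08. Sod2 in CM1 was at 209 CPM in Sham-WT and 349.7 in Sham-KO.

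After infarction the 2 genotypes were close. The median of the 10 log2 ratios MI-KO over MI-WT was 0.05 against 0.03 over all genes, and no gene of the 10 reached 1.5-fold, where 3.94% of all genes tested were that much higher and 3.68% lower. Prdx3 at 0.32 (0.08 to 0.56), Gpx4 at 0.18 (0.06 to 0.30) and Sod2 at 0.15 (0.05 to 0.25) were higher in the library labelled KO beyond counting error, but thinned to 1000 UMIs per nucleus Sod2 was at -0.067 and Gpx4 at -0.0039. Gpx1 at -0.28 (-0.47 to -0.08) was lower, and so was Prdx1 at -0.12 (-0.24 to -0.00), with an interval that ended just below 0. Markers of blood and immune cells moved the same way as Gpx1: the 5 red blood cell genes summed to 4519 CPM in MI-WT and 2123 in MI-KO, and the 10 myeloid genes to 547 and 279 CPM. Their part in the result was not tested. In nuclei with no myeloid UMI, Gpx1 was at -0.61, but only 297 of 2003 nuclei of MI-WT and 691 of 1848 of MI-KO were left.

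The KO over WT ratio after MI minus that after Sham was -0.61 for Gpx1, -0.47 for Prdx5, -0.42 for Sod2, -0.31 for both Prdx1 and Sod1 and -0.17 for Gpx4, each with a counting interval below 0. For Gpx3 it was 0.44 (0.02 to 0.86). These are differences between 4 libraries, and the high Sham-KO level enters each of them.

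**Figure D2:**
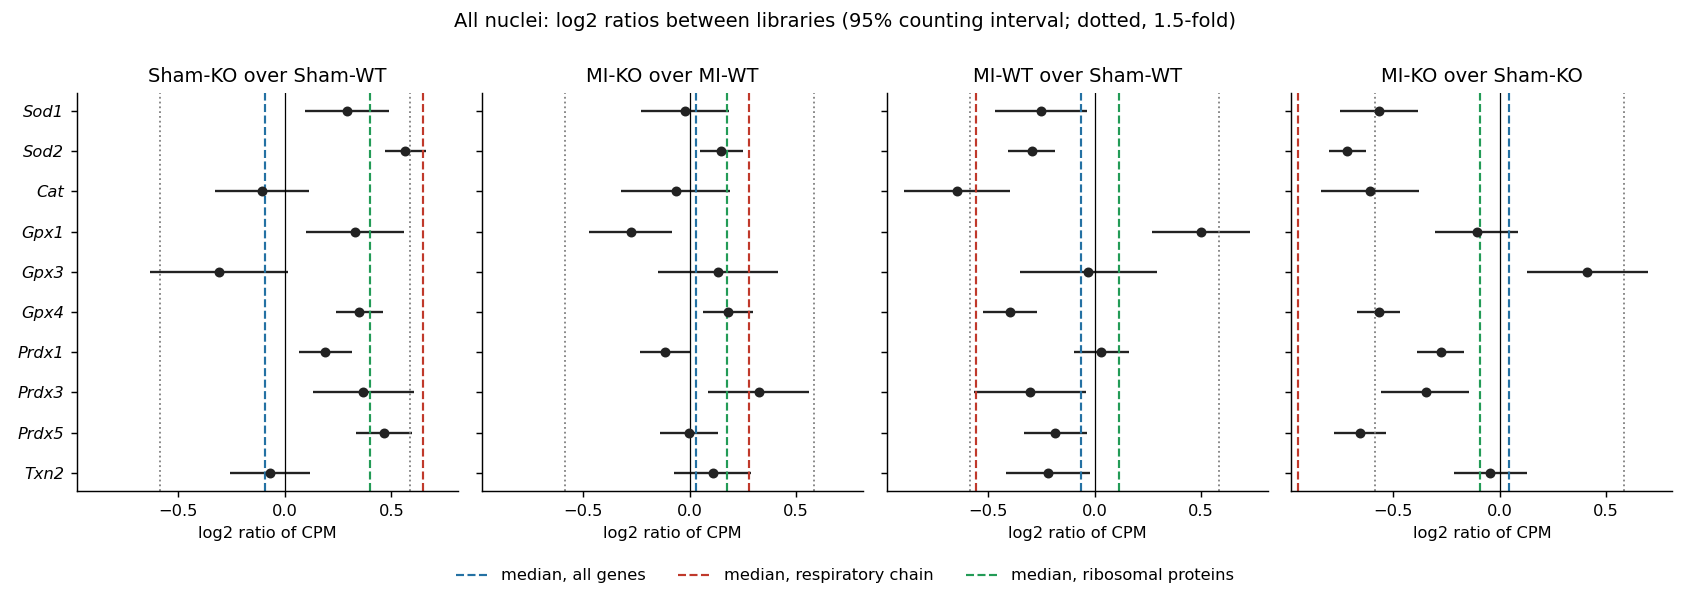
Log2 ratio of CPM of each enzyme in all nuclei for the 4 pairs of libraries (points with 95% counting intervals), with the medians of all genes, of the respiratory chain and of the ribosomal protein genes as dashed lines and 1.5-fold as dotted lines. Sham-KO over Sham-WT, the respiratory chain median of 0.65 lies to the right of all 10 enzymes, and MI-KO over Sham-KO, its median of -0.95 lies to the left of all 10.

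MI over Sham, most of the enzymes were lower in both genotypes. In the WT pair the median of the 10 was -0.24, and Cat at -0.65 (-0.90 to -0.40) was the 1 gene past 1.5-fold. Of all genes tested, 15.9% were that much lower and 12.5% higher. Gpx4 was at -0.40 (-0.52 to -0.27), and Sod2 and Prdx3 both at -0.30. Sod1 at -0.25 (-0.47 to -0.04) was at 0.017 in nuclei with 4% to 8% mitochondrial UMIs, and Prdx5 at -0.18 (-0.33 to -0.04) was at 0.036 when thinned. Gpx1 went the other way at 0.50 (0.27 to 0.73). In the KO pair the median of the 10 was -0.46 and 3 genes were 1.5-fold or more lower. They were Sod2 at -0.71 (-0.80 to -0.63), Prdx5 at -0.65 (-0.78 to -0.53) and Cat at -0.61 (-0.84 to -0.38). Of all genes tested, 12.5% were that much lower and 14.1% higher. Gpx3 at 0.41 (0.13 to 0.70) was higher in MI-KO than in Sham-KO, and Gpx1 was at -0.11 (-0.30 to 0.09).

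The enzymes moved less than the respiratory chain, whose median was -0.56 in the WT pair and -0.95 in the KO pair. In the WT pair 9 of the 10 enzymes were above that median, all but Cat, and in the KO pair all 10 were. The summed level of the 10 genes went from 1029 to 895 CPM in WT and from 1295 to 925 CPM in KO, so that the MI libraries lay close to each other and the Sham libraries did not. In the mitochondrial share the MI libraries were also alike and below Sham. In nuclei with 4% to 8% mitochondrial UMIs, the median of the 10 was -0.037 in WT and -0.26 in KO, against -0.24 and -0.46 in all nuclei. Within CM1 it was -0.04 in WT, and Sod2 (-0.05) and Prdx5 (0.03) in that population did not differ beyond counting error. In the KO pair the CM1 median was -0.51, and Sod2 there was at -0.67 (-0.78 to -0.57) and Prdx5 at -0.64 (-0.78 to -0.49). In CM1 nuclei with 8% to 12% mitochondrial UMIs the KO median was -0.32, with Sod2 at -0.48 and Prdx5 at -0.36. In those with 1500 to 2500 UMIs it was -0.23, with Sod2 at -0.68 and Prdx5 at -0.33. Gpx1 in CM1 was at 37.1 CPM in Sham-WT and 60.7 in MI-WT, a log2 ratio of 0.71 (0.43 to 0.99). That ratio was 0.25 in CM1 nuclei with 8% to 12% mitochondrial UMIs and 0.91 in those with 1500 to 2500 UMIs. With no myeloid UMI it was 0.66. The myeloid genes summed to 129 CPM in Sham-WT and 547 in MI-WT, and their part in the higher Gpx1 was not tested. In nuclei with no myeloid UMI, no gene of the 10 was 1.5-fold lower in the WT pair and 4 were in the KO pair. That selection kept unequal parts of the libraries: 297 of 2003 nuclei in MI-WT and 901 of 1406 in Sham-WT, and 691 of 1848 in MI-KO and 2592 of 3328 in Sham-KO.

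Other genes of peroxide and disulfide handling lay on both sides of 0. Of 31 such genes, 29 had enough UMIs in the WT pair, of which 5 were 1.5-fold or more higher after MI and 7 lower, where 12.5% and 15.9% of all genes tested were. In the KO pair, 6 of 30 were higher and 6 lower, where 14.1% and 12.5% of all genes tested were. Txnrd1, the cytosolic thioredoxin reductase, was higher at 1.15 (0.84 to 1.47) in WT and 1.29 (1.04 to 1.55) in KO. Gclc, the catalytic subunit of the enzyme that limits glutathione synthesis, was higher at 1.06 (0.67 to 1.46) and 1.41 (1.07 to 1.75). Both are textbook targets of the antioxidant response element. Among methionine sulfoxide reductases, which repair oxidized methionine, Msra was at 1.18 (0.99 to 1.39) and 1.28 (1.10 to 1.45) and Msrb3 at 0.76 and 0.98. Srxn1, the sulfiredoxin that restores overoxidized peroxiredoxins, was at 0.40 (-0.81 to 1.73) in WT and 1.82 (0.87 to 2.85) in KO, and MI-KO over MI-WT at 1.07 (0.24 to 1.95).

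On the lower side, Txnip, the inhibitor of thioredoxin, was at -1.47 (-1.59 to -1.35) in WT and -1.17 (-1.27 to -1.07) in KO. Mgst3, a microsomal glutathione transferase, was at -0.84 and -1.09, and Prdx2, a peroxiredoxin abundant in red blood cells, at -0.72 and -0.88. In all nuclei, Txnrd1, Gclc, Msra and Msrb3 were thus higher in both MI libraries, while Sod2, Cat, Gpx4 and Prdx5 were lower. These are named examples, and other genes of either list went the other way or differed by genotype. Gpx1 was at 0.50 in the WT pair and -0.11 in the KO pair, and Gpx3 at -0.03 and 0.41. Within CM1 of the WT pair, Cat (-0.56) and Gpx4 (-0.28) were lower, but Sod2 (-0.05) and Prdx5 (0.03) had intervals that held 0. Thinned to 1000 UMIs per nucleus, Prdx5 in all nuclei of the WT pair was at 0.036. Maob, a monoamine oxidase that produces hydrogen peroxide, had an interval of -1.71 to -0.29 in WT and was at -0.90 (-1.55 to -0.29) in KO. Nnt, which supplies mitochondrial NADPH, was at -1.69 (-3.73 to -0.06) in KO on 4 and 16 UMIs, and had too few UMIs in the WT pair. Between the genotypes after Sham, Mgst3 was at 0.72 (0.56 to 0.87) and Sephs2, which makes the selenium donor that glutathione peroxidases need, at 0.65 (0.06 to 1.28), and after MI Sephs2 was at 0.79 (0.23 to 1.36). Of the regulators, Nfe2l2 was at 0.18 (-0.01 to 0.37) MI over Sham in WT and 0.34 (0.17 to 0.52) in KO, and Ppargc1a, a coactivator of mitochondrial genes, at -0.47 and -0.41. Keap1 and Bach1, which restrain Nfe2l2 and its targets, had intervals that held 0 in both MI over Sham pairs, as did Foxo1 in KO.

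**Figure D3:**
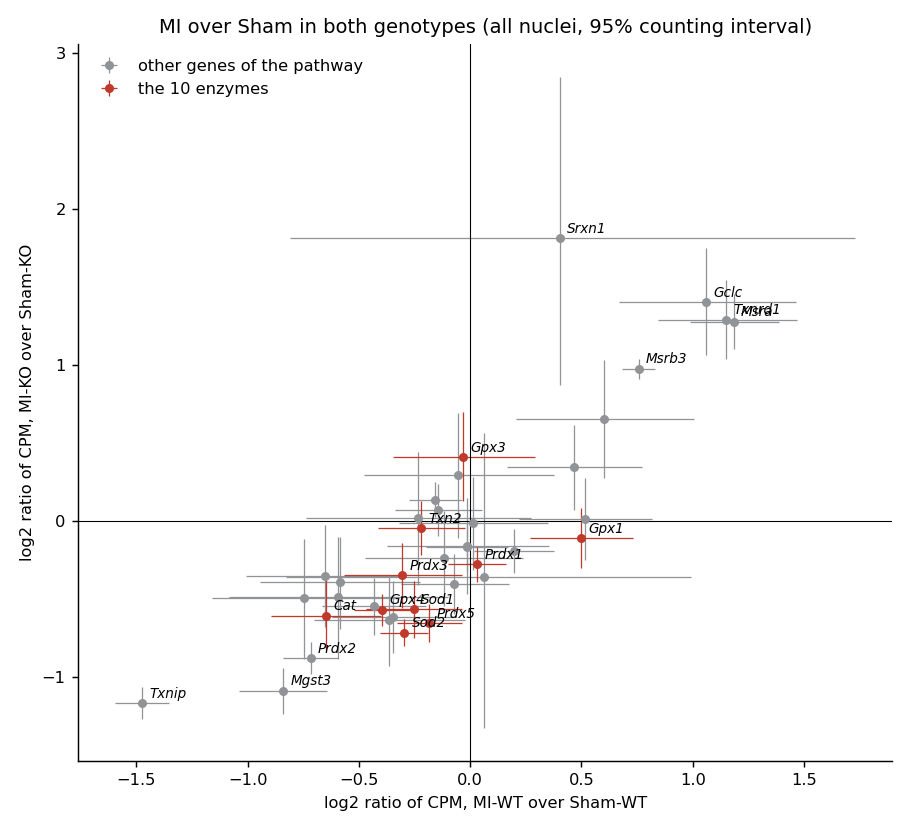
Log2 ratio of CPM MI over Sham in the WT libraries (horizontal axis) against the KO libraries (vertical axis), all nuclei, for the 10 enzymes (red) and 29 other genes of the pathway (grey), with 95% counting intervals. Txnrd1, Gclc, Msra and Msrb3 lie at the upper right and Txnip at the lower left, at -1.47 and -1.17, with most of the 10 enzymes below 0 on both axes.

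The authors had divided the nuclei into the populations CM1, CM2, CM4 and CM5, of which CM1 was the largest and CM4, with 118 to 351 nuclei a library, is the one in which the study follows Nrf1. The populations were clustered on gene expression, of which these genes are a part, so their levels are a description. All 10 enzymes were higher in CM4 than in CM1 in all 4 libraries, where 24.4% of the 10614 genes compared were higher in all 4 and 34.2% lower in all 4. The median log2 ratio CM4 over CM1 of the 10 was 1.42 in Sham-WT, 0.65 in Sham-KO, 1.07 in MI-WT and 1.32 in MI-KO. Gpx4 in CM4 was at 508 CPM (440.4 to 584) in Sham-WT, 378 (335 to 425) in Sham-KO, 387 (329.7 to 451) in MI-WT and 527 (453 to 609) in MI-KO, against 133 to 232 CPM in CM1. Sod2 in CM4 was at 607, 520.2, 329.9 and 459.7 CPM in the same order, against 203 to 349.7 in CM1. Sham-KO had the smallest step for Gpx4, where its log2 ratio was 0.71 (0.52 to 0.89) and those of the other 3 libraries 1.54 to 1.90.

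Cat and Txn2 differed least between the populations. The log2 ratio CM4 over CM1 of Cat was 0.09 to 0.69 and that of Txn2 0.04 to 1.26, and the interval of Cat held 0 in 3 libraries. Gpx1 (0.91 to 1.83), Prdx5 (0.75 to 1.81) and Prdx1 (0.83 to 1.42) had intervals above 0 in every library, as did Sod1, Sod2, Gpx3 and Gpx4. Gpx3 stood out in MI-KO, where it was at 119 CPM (85.6 to 162) in CM4 against 38.3 to 54.6 CPM in the CM4 nuclei of the other 3 libraries. That value rests on 41 UMIs in 25 nuclei, of which 10 nuclei held 63.4%.

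The mitochondrial and translation genes were higher in CM4 as well. The respiratory chain list had medians of 1.65 in Sham-WT, 0.66 in Sham-KO, 1.21 in MI-WT and 1.51 in MI-KO, and the ribosomal protein list 1.59, 0.78, 1.38 and 1.52. CM4 nuclei were also shallower, with medians of 1715.5 to 2394 UMIs, held 9.47% to 14.6% mitochondrial UMIs, and had more red blood cell RNA, at 3538 to 12805 CPM against 1891 to 3829 in CM1. The 7 endothelial genes had a median log2 ratio of 1.41 to 2.39 over the libraries. Their part in the result was not tested. Among nuclei with 8% to 12% mitochondrial UMIs, the median of the 10 remained 0.53 to 1.22 over the libraries, and 8 of the 10 genes were higher in CM4 in all 4, with Gpx3 at -0.93 in Sham-WT. Among nuclei with 1500 to 2500 UMIs it was 0.32 to 1.24, and 6 genes were higher in all 4, with Sod2 at -0.52 in MI-WT and Prdx3 at -0.40 in MI-KO. The 10 genes higher in all 4 became 9 with the transferred label, 8 when thinned or with nuclei weighted equally, and 7 in nuclei with no myeloid UMI, with Cat below 0 in MI-KO each time. Within CM1 of a single library, the summed level of the 10 genes also went with the mitochondrial share: in Sham-WT it was 776 CPM (711 to 845) in nuclei under 4% and 1071 CPM (993 to 1153) in nuclei with 8% to 12%, and in Sham-KO 925 CPM and 1336 CPM. CM4 nuclei with 8% to 12% stood above both, at 2457 and 1936 CPM.

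**Figure D4:**
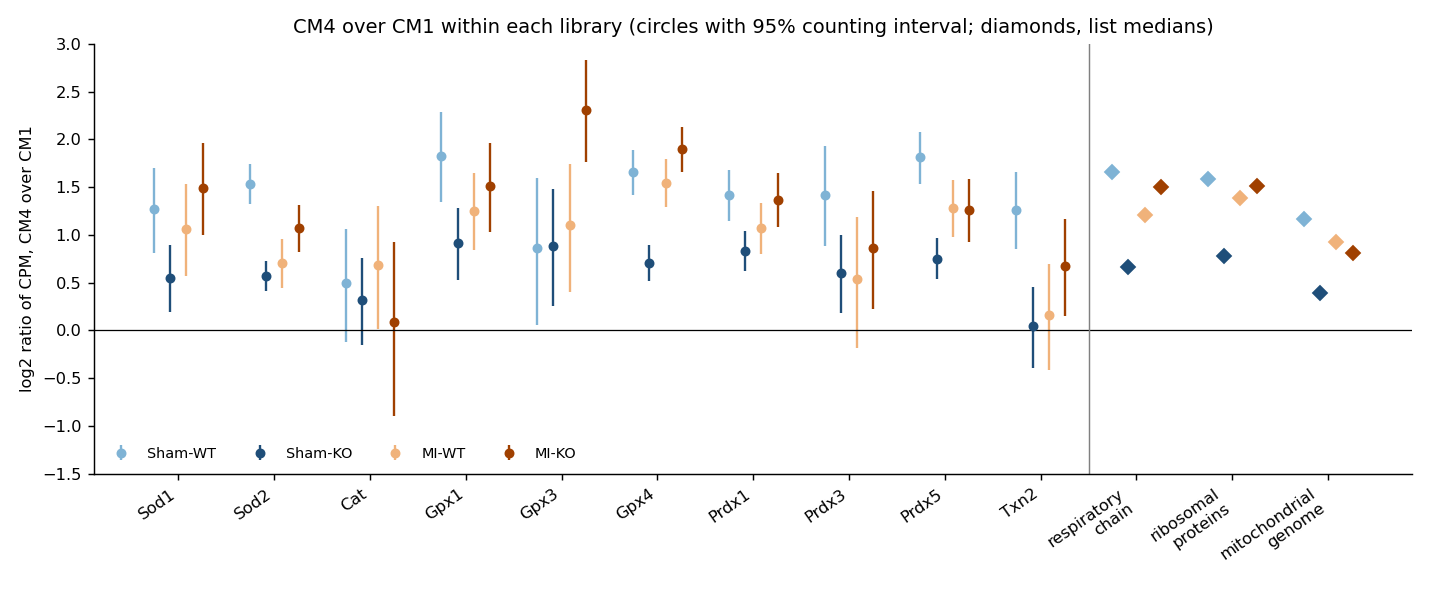
Log2 ratio of CPM CM4 over CM1 (vertical axis) within each library for the 10 enzymes (circles with 95% counting intervals) and for 3 gene lists (diamonds, medians). All circles lie above 0, from 0.04 for Txn2 in Sham-KO to 2.31 for Gpx3 in MI-KO, and the medians of the 3 lists are lowest in Sham-KO.

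Genotype went with opposite directions in CM1 and CM4 after Sham. In CM4 all 10 log2 ratios Sham-KO over Sham-WT were below 0, with a median of -0.32, where in CM1 the median was 0.43. Txn2 at -1.16 (-1.71 to -0.61) was the largest, from 162 CPM (125 to 207) in Sham-WT to 72.6 (54.3 to 94.9) in Sham-KO, and Gpx4 at -0.43 (-0.70 to -0.16) and Prdx5 at -0.39 (-0.70 to -0.08) also had intervals below 0. The other 7 intervals held 0. Relative to the all-gene median of this pair in CM4, the 10 ran from -0.25 for Cat to -1.22 for Txn2. None (0) of the 10 was above the respiratory chain median of this pair in CM4, and 2 were above the ribosomal one. After MI the CM4 ratios were mostly above 0, with a median of 0.39. Gpx3 at 1.13 (0.36 to 1.93), Sod2 at 0.48 (0.14 to 0.82) and Gpx4 at 0.45 (0.13 to 0.76) had intervals above 0. Of the 10, 2 were above the respiratory chain median of the MI pair in CM4, and 6 above the ribosomal one. The ratio after MI minus that after Sham in CM4 was 1.71 (0.84 to 2.57) for Txn2, 0.87 (0.47 to 1.28) for Gpx4 and 0.70 (0.30 to 1.10) for Sod2. For Txn2 the high Sham-WT level enters this difference and every CM4 ratio over Sham-WT. It rests on 64 UMIs, and the CM4 sums of Sham-KO, MI-WT and MI-KO held 53, 31 and 37.

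The CM4 nuclei of the libraries also differed in quality. Sham-WT CM4 had the most mitochondrial UMIs (14.6%) and 12805 CPM of red blood cell genes against 7833 in Sham-KO, and long nuclear RNAs such as Malat1 summed to 24434 CPM in Sham-WT CM4 and 54324 in Sham-KO CM4. After MI, CM4 had 59986 CPM of those RNAs in MI-WT and 39407 in MI-KO, so that the median of the 10 was higher in the library with less of them at each surgery, although Cat (-0.71), Gpx1 (-0.08) and Prdx5 (-0.02) were below 0 MI-KO over MI-WT. Mitochondrial UMIs and red blood cell RNA did not keep that order, since after MI they were 10.8% and 8411 CPM in MI-WT against 9.47% and 3538 CPM in MI-KO. The part of nuclear quality in the result was not tested. Thinned to 1000 UMIs per nucleus, the CM4 median after Sham was -0.39 and that after MI 0.17, and Gpx4 after MI was at 0.11.

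**Figure D5:**
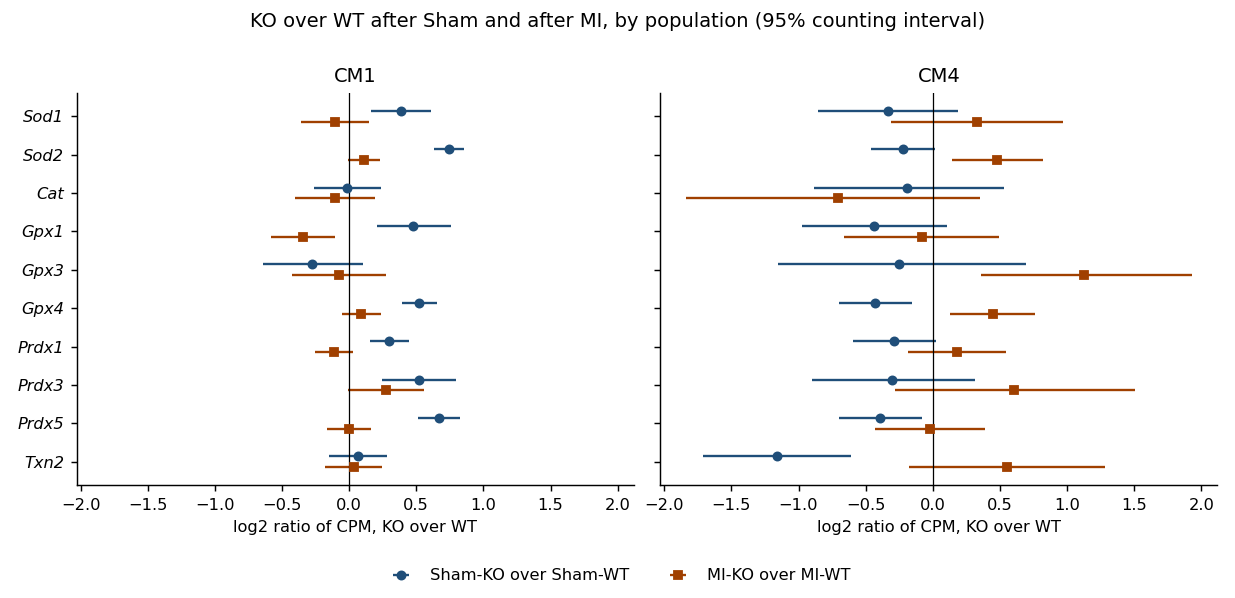
Log2 ratio of CPM KO over WT (horizontal axis) after Sham (circles) and after MI (squares) in CM1 and in CM4, with 95% counting intervals. In CM1 most circles lie right of 0, with Sod2 at 0.74, and in CM4 all circles lie left of 0, with Txn2 at -1.16.

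In CM4, MI over Sham also split by genotype. In the WT libraries Txn2 at -1.14 (-1.81 to -0.50), Prdx3 at -1.02 (-1.86 to -0.22), Sod2 at -0.88 (-1.19 to -0.57), Prdx5 at -0.50 (0.042 when thinned) and Gpx4 at -0.39 were lower in MI, and the median of the 10 was -0.41. In the KO libraries the median was 0.25, with Gpx3 at 1.64 (0.91 to 2.39) and Gpx4 at 0.48 (0.20 to 0.75) higher. The genes of the 3 mitochondrial proteins Sod2, Prdx3 and Txn2 gave the lowest values of the WT pair in all CM4 nuclei and when thinned. This order did not hold in every selection. In nuclei with 8% to 12% mitochondrial UMIs, Cat at -0.72 was below Txn2 at -0.40. In nuclei with 1500 to 2500 UMIs, Prdx5 at -0.73 was below Prdx3 at -0.21. Prdx3 in CM4 rests on 21 UMIs in MI-WT and 40 in Sham-WT. In all CM4 nuclei the respiratory chain list had a median of -0.86 in the WT pair and -0.12 in the KO pair.

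CM5 and CM2 set no common pattern for these genes. CM5 over CM1, Gpx4 alone was higher in all 4 libraries, by 0.04 to 0.33, and no gene was lower in all 4, where 11.4% of the genes compared were higher in all 4 and 15.1% lower. In CM5 of the MI libraries Sod2 was below CM1 at -0.38 and -0.37. CM2 over CM1, Sod2, Prdx5 and Txn2 were lower in all 4 and none higher, where 12.2% of genes were lower and 14.9% higher. CM2 held 27 to 124 nuclei a library, and Sham-WT had 1 UMI of Cat there, so that most intervals held 0. The deposited label transferred from an earlier reference named most final CM5 nuclei CM2 (743) and most final CM2 nuclei CM5 (197), while 652 CM4 nuclei had that label in both.

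Over the 12 sums of 4 libraries and the populations CM1, CM4 and CM5, the levels of the 10 genes went together. All 45 pairs had a Pearson r above 0 on log2(CPM + 10), from 0.23 to 0.97 with a median of 0.77. The sums share libraries, depth and the CM4 difference, so this r is a description. The same r was not computed over pairs of other genes, so it is not shown to be particular to the 10. Among 8743 genes with at least 300 UMIs, those most like Sod2 were Slc25a3, the mitochondrial phosphate carrier, Dld and Suclg1, a subunit each of matrix dehydrogenase complexes and of succinyl-CoA ligase, all with r of 0.99. Those most like Gpx4 were the ribosomal protein gene Rps9 and the respiratory chain genes Cox8a and Atp5e, also at 0.99. Gpx1 was nearest to the translation factor gene Eef1b2 at 0.98, Sod1 to Trir at 0.99, Prdx1 to the proteasome subunit gene Psma6 at 0.99 and Prdx5 to Sumo2 at 0.99. Cat had looser company, with Nqo2, a quinone reductase, at 0.94. Prdx3 was nearest to Txndc17 at 0.97, Gpx3 to Nsfl1c at 0.96 and Txn2 to Yjefn3 at 0.96.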

How the data were processed

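Nuclei were isolated from pooled hearts and sequenced with 10x Genomics 3′ chemistry, for which labels and methods name different versions. The authors aligned reads with Cell Ranger (version not given in the sources used here) to the mm10/GRCm38 pre-mRNA reference, removed doublets with Scrublet and nuclei outside 200 to 2500 detected genes, kept cardiomyocyte clusters (Seurat 3), and deposited raw UMI counts per gene and nucleus with no normalization. The deposited percent of mitochondrial UMIs and both population labels were used, and 10 columns of values per nucleus were not. No doublet caller was run again.

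UMIs were summed per library and population (Python 3.11.15, numpy 2.4.6, scipy 1.17.1). Ratios used genes with at least 20 UMIs over both sums, and a floor of 3 UMIs was set for a sum of 0. The ratio script was tested on simulated counts. TMM factors came from edgeR 4.0.16. Genes named outside the 10 were those past 1.5-fold with an interval that leaves out 0, at most 6 per pair by size, the regulators, and the 3 genes of highest Pearson r. Msrb3 and Prdx2 were named after their values were seen. Of 22574 symbols, 98.0% matched GENCODE M21. The members and gene lists were chosen with earlier results of these data known. Intervals and floors cover counting error only.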

Additional observations from a re-analysis of the deposited data

Results flagged for a closer look

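The KO over WT log2 ratio had opposite directions at the 2 surgeries, above or below 0 with intervals that left out 0 each time, for 4 values. With 1 library per group, none of these differences was tested. In all nuclei, the ratio after MI minus that after Sham was -0.61 for Gpx1 and -0.31 for Prdx1, both higher in KO after Sham and lower after MI. The interval of Prdx1 after MI ended just below 0. In CM1 it was -0.82 for Gpx1, but in CM1 nuclei with 8% to 12% mitochondrial UMIs Gpx1 was above 0 at both surgeries, at 0.15 after Sham and 0.32 after MI. In CM4 the difference for Gpx4 was 0.87, lower in KO after Sham and higher after MI. Thinned to 1000 UMIs per nucleus, the CM4 ratio of Gpx4 after MI was 0.11.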

How the results depend on the processing

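Of the values whose interval left out 0, the sign changed under at least 1 alternative for 4 of 28 in all nuclei, 2 of 18 within CM1, 1 of 13 within CM4 and 4 of 34 for CM4 over CM1. The median MI-KO over MI-WT, 0.051 in all nuclei, was -0.024 when thinned, -0.038 in CM1 and -0.057 with no myeloid UMI, and within CM1 it was 0.033 with exchanged names, 0.10 in nuclei with 8% to 12% mitochondrial UMIs and 0.23 in those with 1500 to 2500 UMIs. Within CM1, the median MI-WT over Sham-WT was 0.031 with TMM, 0.025 with no myeloid UMI and 0.014 with 1500 to 2500 UMIs. Of these single values, in all nuclei Sod2 (-0.067) and Gpx4 (-0.0039) MI-KO over MI-WT and Prdx5 (0.036) MI-WT over Sham-WT turned when thinned, Prdx5 (0.032) also in CM1, and Sod1 (0.017) in the nuclei with 4% to 8% mitochondrial UMIs. Within CM1, Gpx1 MI-KO over MI-WT (0.32) and Sod1 MI-KO over Sham-KO (0.022, from -0.70) turned in the 8% to 12% nuclei, and within CM4 Prdx5 MI-WT over Sham-WT (0.042) when thinned. CM4 over CM1, Gpx3 in Sham-WT was -0.93 in the 8% to 12% nuclei, Sod2 in MI-WT -0.055 with no myeloid UMI and -0.52 with 1500 to 2500 UMIs, and there Prdx3 in MI-KO was -0.40 and Txn2 -0.027. No paired analysis was possible because each group had 1 library, and leaving out a replicate was not possible for the same reason. The planned selection of nuclei with no UMI of 4 marker lists left too few nuclei to give a value, and nuclei with no myeloid UMI were used in its place, a choice made after seeing the data, as were the windows of 8% to 12% mitochondrial UMIs and of 1500 to 2500 UMIs and the exchanged names. Counts past 1.5-fold moved as follows. Sham-KO over Sham-WT, 1 gene was higher, against 0, with totals without the mitochondrial genome, with TMM, with median-of-ratios factors and in nuclei with 4% to 8% mitochondrial UMIs, where 1 was also lower, and 2 were higher in CM1. MI-KO over MI-WT, 1 was higher in the 4% to 8% nuclei and 1 lower in nuclei with no myeloid UMI, against 0 each. MI-WT over Sham-WT, the 1 lower gene became 0 with TMM, with median-of-ratios factors, in nuclei with 2000 to 4000 UMIs, in the 4% to 8% nuclei, in CM1 and with no myeloid UMI, and 2 when thinned, while 1 was higher in the 4% to 8% nuclei and in CM1. MI-KO over Sham-KO, the 3 lower genes became 5 with totals without the mitochondrial genome, with TMM, with median-of-ratios factors and in CM1, 0 in nuclei with 2000 to 4000 UMIs and 1 in the 4% to 8% nuclei, where 1 was higher. In the 4% to 8% nuclei the median MI over Sham was -0.037 in WT and -0.26 in KO. CM4 over CM1, the 10 genes higher in all 4 libraries became 9 with the transferred label, 8 when thinned, with equal weight and in the 8% to 12% nuclei, 7 with no myeloid UMI and 6 with 1500 to 2500 UMIs. CM5 over CM1, the 1 higher gene became 0 when thinned and with equal weight of nuclei. With the transferred label it also became 0 and 4 were lower, but no final CM5 nucleus (0) was named CM5 by that label. Its CM5 held mostly final CM2 nuclei. With its names exchanged, Gpx4 stayed higher in all 4, by 0.037 in Sham-KO to 0.47 in Sham-WT, and 2 genes were lower. CM2 over CM1, 1 gene was higher with the transferred label, whose CM2 held mostly final CM5 nuclei. When thinned, 1 gene was higher and none (0) of the 3 lower genes was lower. The cause was not tested.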
